A study of Homo sapiens with 12 samples.

Results

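The 42 genes described here encode splicing regulators of the SR, hnRNP and PTBP families in HEK293T, an established human embryonic kidney cell line. They were taken from the 58735 genes of the table as the protein-coding genes whose symbol starts with SRSF and a digit or with HNRNP, or is PTBP1, PTBP2 or PTBP3, which gave 12 SR, 27 hnRNP and 3 PTBP genes. RNA-Seq of polyA RNA was done on 12 libraries of wild-type cells, 3 for each of 4 groups. The DMSO group received vehicle, the CEP group 25 µM of the clickable electrophilic purine AHL-Pu-1, a probe that labels protein cysteines, for 1 h, the 4SU group 100 µM of 4-thiouridine, a uridine analog taken up into new RNA, for 16 h, and the CEP+4SU group both compounds. The protocol text shared by the samples includes ultraviolet crosslinking between both compound steps. It gives the CEP dose in mM, while the design text gives it in µM. The comparison asks whether the cell treatments used for protein labeling altered the mRNA of these regulators. All libraries came from this 1 cell line, and the study describes the replicates as biologically independent experiments.

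SR proteins carry RNA recognition motifs and a tail rich in arginine and serine, and binding of an SR protein to an exonic enhancer commonly promotes use of nearby splice sites. Proteins of the hnRNP families coat nascent transcripts and often oppose exon inclusion, for which SRSF1 and HNRNPA1 are the textbook antagonists. PTBP1 binds polypyrimidine tracts and represses neuronal exons, among them an exon of its paralog PTBP2. Many of these genes limit their own level through alternative exons that expose the mRNA to nonsense-mediated decay. Counts per gene add all transcripts of a gene together, so these isoforms are not separated here.

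Library totals ran from 16569114 to 24644734 counts on genes. The 5 markers listed for HEK293T were counted in every library, with NEFM at 142 to 181 and PAX2 at 5.24 to 9.19 counts per 1000000 counts (CPM). Of 11 markers of melanoma, blood and liver cells, TYR, HBB and CD3E were at 0 in all 12 libraries, and MITF was the highest at 18.0 to 27.8 CPM. The melanoma markers PMEL, DCT and MLANA were also counted in every library, at 4.52 to 10.7, 1.41 to 6.42 and 0.118 to 0.939 CPM. PMEL was thus in the range of PAX2. SOX10, PTPRC, ALB and APOA1 reached at most 0.469 CPM. Replicate 2 of CEP and replicate 2 of CEP+4SU stood apart, with 22230 and 22627 genes counted against 24376 to 25869 in the other 10, so results are also given without both of them. Of the 37 members tested, 16 overlap a gene on the opposite strand, SRSF1, SRSF2 and SRSF9 among them, and whether counting used the strand is not given in the sources used here. A lower value in such bulk samples does not tell fewer cells that express a gene from less RNA per cell.

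Levels were compared between genes per length of the merged annotated exons, as FPKM, fragments per kilobase and per 1000000 fragments, with means and SDs over the 3 DMSO libraries. Among the SR genes, SRSF3, the smallest family member with a role in mRNA export, stood at 87.8 ± 2.76 FPKM, SRSF2, which binds exonic enhancers, at 83.5 ± 5.57 and SRSF6 at 74.5 ± 3.91. Each of these overlapped its neighbour in the order, as SRSF6 did SRSF7 (68.8 FPKM). SRSF1 followed at 57.8 ± 2.93 FPKM, then its close paralog SRSF9 at 48.8 ± 3.29, which overlapped SRSF5 (47.1 FPKM), and these were followed without overlap by SRSF11 (43.8), SRSF4 (26.2), SRSF10 (24.9), SRSF8 (17.9) and SRSF12 (3.86 FPKM).

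The hnRNP genes reached higher. HNRNPA1, a binder of exonic silencers, led with 382 ± 13.6 FPKM, followed by HNRNPAB at 259 ± 7.98 and HNRNPK, a KH-domain protein that binds C-rich RNA, at 222 ± 8.34. HNRNPA2B1 (186 FPKM), the U-tract binder HNRNPC (164), HNRNPA3 (138), HNRNPM (123) and the G-tract binder HNRNPF (107) came next, and no neighbours among these first 8 genes or HNRNPD overlapped in their DMSO libraries. HNRNPD, which binds AU-rich elements, HNRNPH1, HNRNPUL1 and HNRNPDL lay together at 81.6, 79.3, 79.2 and 75.2 FPKM, with each overlapping the next. Below them were HNRNPH2 (65.4) and the nuclear scaffold protein HNRNPU (64.6), which overlapped, HNRNPR (54.8), HNRNPL (49.0), HNRNPH3 (41.5) and HNRNPA0 (36.9 FPKM), the last pair overlapping. HNRNPA1P48, HNRNPLL, HNRNPUL2 and HNRNPA1L2 were lowest at 12.6, 9.52, 7.42 and 4.74 FPKM.

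PTBP1 stood at 121 ± 1.88 FPKM, PTBP3 at 17.0 ± 0.501 and PTBP2, the paralog typical of neurons, at 3.15 ± 0.177. Their order in the DMSO libraries was without overlap. The remaining 5 members did not pass edgeR's filter on low counts. HNRNPCL1, HNRNPCL3 and HNRNPCL4 had no count in any library, HNRNPCL2 had 1 count in 1 library, and HNRNPUL2-BSCL2, a readthrough gene that shares exons with HNRNPUL2, had at most 3. The 37 members tested were 12 SR, 22 hnRNP and 3 PTBP genes. All members together held 1.77% ± 0.0618 of all counts in DMSO, of which the hnRNP genes took 1.37% ± 0.0560 and the SR genes 0.305% ± 0.00526 of all counts.

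**Figure D1:**
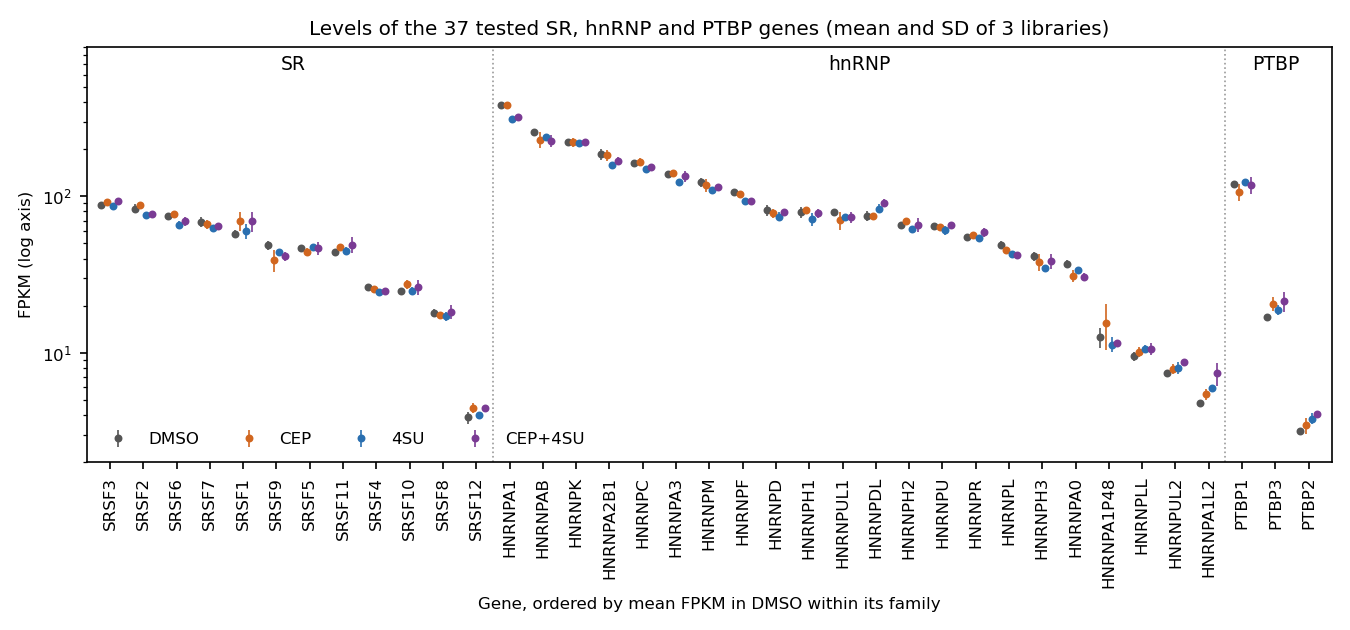
FPKM on a log axis for the 37 tested members, ordered within each family by the DMSO mean, with the mean and SD of 3 libraries per group. HNRNPA1 is the highest member and sits lower in both groups with 4SU, at 313 and 321 FPKM against 382 in DMSO.

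HNRNPA1 mRNA fell with 4SU, and HNRNPA1 was the one member called in edgeR for 4SU averaged over CEP, the mean of the 4SU difference without and with CEP. A gene was called where its p, adjusted over all genes tested, was 0.05 or less. The CPM given here use a library size scaled by TMM. HNRNPA1 was counted at 1952, 1888 and 2039.6 CPM in the DMSO libraries, 2013, 1861 and 2038 with CEP, 1563, 1648 and 1589 with 4SU and 1605, 1719 and 1622 with CEP+4SU (replicates 1, 2 and 3 in this and the following sentences). All 6 libraries with 4SU, at 1563 to 1719 CPM, were below all 6 libraries without it, at 1861 to 2039.6 CPM. The log2 fold change was -0.27 ± 0.044 (SE) with an adjusted p of 0.0089 in edgeR's quasi-likelihood test over 17729 genes. Across all genes tested 0.558% were called in this comparison, and 1 of 37 members was. Without both second replicates with CEP the change of HNRNPA1 was -0.31 (adjusted p = 0.00030).

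The lower HNRNPA1 was seen with and without CEP, in pairs of groups that share no library. Between 4SU and DMSO, HNRNPA1 differed by -0.29 ± 0.062 on the log2 scale, which did not pass (edgeR adjusted p = 0.25). Between CEP+4SU and CEP it differed by -0.26 ± 0.062 (adjusted p = 0.16). The call for HNRNPA1 with 4SU averaged over CEP held in all 12 fits without 1 library, with adjusted p from 0.0031 to 0.048, and was lost with limma on log2(FPKM + 1), where the change was -0.27 (adjusted p = 0.14). HNRNPA1 made up 14.1% ± 0.264 of the summed CPM of the hnRNP genes in DMSO and 14.4% ± 0.257 with CEP, against 12.8% ± 0.242 with 4SU and 12.6% ± 0.112 with CEP+4SU (SD, n = 3).

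HNRNPA1 has a near-identical relative, HNRNPA1L2, whose coding sequence is not interrupted by introns, and a stretch of both is shown because reads of one can fit the other. The coding sequence of HNRNPA1 lies on chr12:54280808-54284310 and that of HNRNPA1L2 on chr13:52642493-52643452, both on the plus strand of GRCh38. Both coding sequences hold 960 bases without the stop codon. Bases 511 to 630 are printed 5′ to 3′ from GENCODE 29 transcripts, with the 4 bases that differ in capitals.
HNRNPA1: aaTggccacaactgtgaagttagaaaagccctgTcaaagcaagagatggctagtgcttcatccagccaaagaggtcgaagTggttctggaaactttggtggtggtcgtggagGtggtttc
HNRNPA1L2: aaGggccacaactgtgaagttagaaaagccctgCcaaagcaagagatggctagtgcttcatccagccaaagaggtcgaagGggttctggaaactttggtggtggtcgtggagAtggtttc
Over the whole coding sequence 15 bases differed, an identity of 98.4%. Of the 150-base windows of the HNRNPA1L2 transcript, 162 of 1223 (13.2%) were found unchanged in a HNRNPA1 transcript, and for HNRNPA1P48 it was 276 of 1423 (19.4%). How reads that fit more than 1 copy were counted is not given in the sources used here, so the split of reads among HNRNPA1, HNRNPA1L2, HNRNPA1P48 and their pseudogenes is uncertain. By symbol the annotation holds 74 pseudogenes of HNRNPA1, and both HNRNPA1 and HNRNPA1L2 overlap another gene on the same strand.

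HNRNPA1L2 rose and HNRNPA1 fell in CEP+4SU against DMSO. HNRNPA1L2 had 6.38, 6.75 and 6.55 CPM in the DMSO libraries, 7.56, 6.95 and 8.11 with CEP, 8.15, 8.55 and 7.98 with 4SU and 12.1, 9.78 and 8.84 with CEP+4SU, from 118 to 226 counts per library. The 3 CEP+4SU libraries were above the other 9, and the 3 DMSO libraries were below the other 9. In edgeR the log2 fold change of HNRNPA1L2 was 0.64 ± 0.15 (adjusted p = 0.043), and that of HNRNPA1 was -0.25 ± 0.062 (adjusted p = 0.049) in the same comparison. These were the 2 of 37 members called, beside 1.64% of all genes tested. In CPM, HNRNPA1 was 1959.9 ± 75.9 in DMSO and 1649 ± 61.4 in CEP+4SU, while HNRNPA1L2 was 6.56 ± 0.185 and 10.3 ± 1.70.

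Both calls in CEP+4SU against DMSO were close to the threshold. HNRNPA1 passed in 5 of 12 fits without 1 library, and was lost without any 1 of the DMSO replicates, replicate 2 or 3 of 4SU or replicate 2 or 3 of CEP+4SU (adjusted p up to 0.17). HNRNPA1L2 passed in 3 of 12, those without a CEP replicate, and was lost without any DMSO, 4SU or CEP+4SU replicate (adjusted p up to 0.17). Without both second replicates with CEP, HNRNPA1 stood at -0.28 (adjusted p = 0.018) and HNRNPA1L2 at 0.68 (adjusted p = 0.052). Of the other settings, library size alone ended the call of HNRNPA1 (adjusted p = 0.058), removal of the GC trend that of HNRNPA1L2 (adjusted p = 0.073), and limma both (adjusted p = 0.27 and 0.12). For 4SU averaged over CEP, HNRNPA1L2 had the highest change of the hnRNP genes at 0.38 ± 0.11 and did not pass (adjusted p = 0.12).

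**Figure D2:**
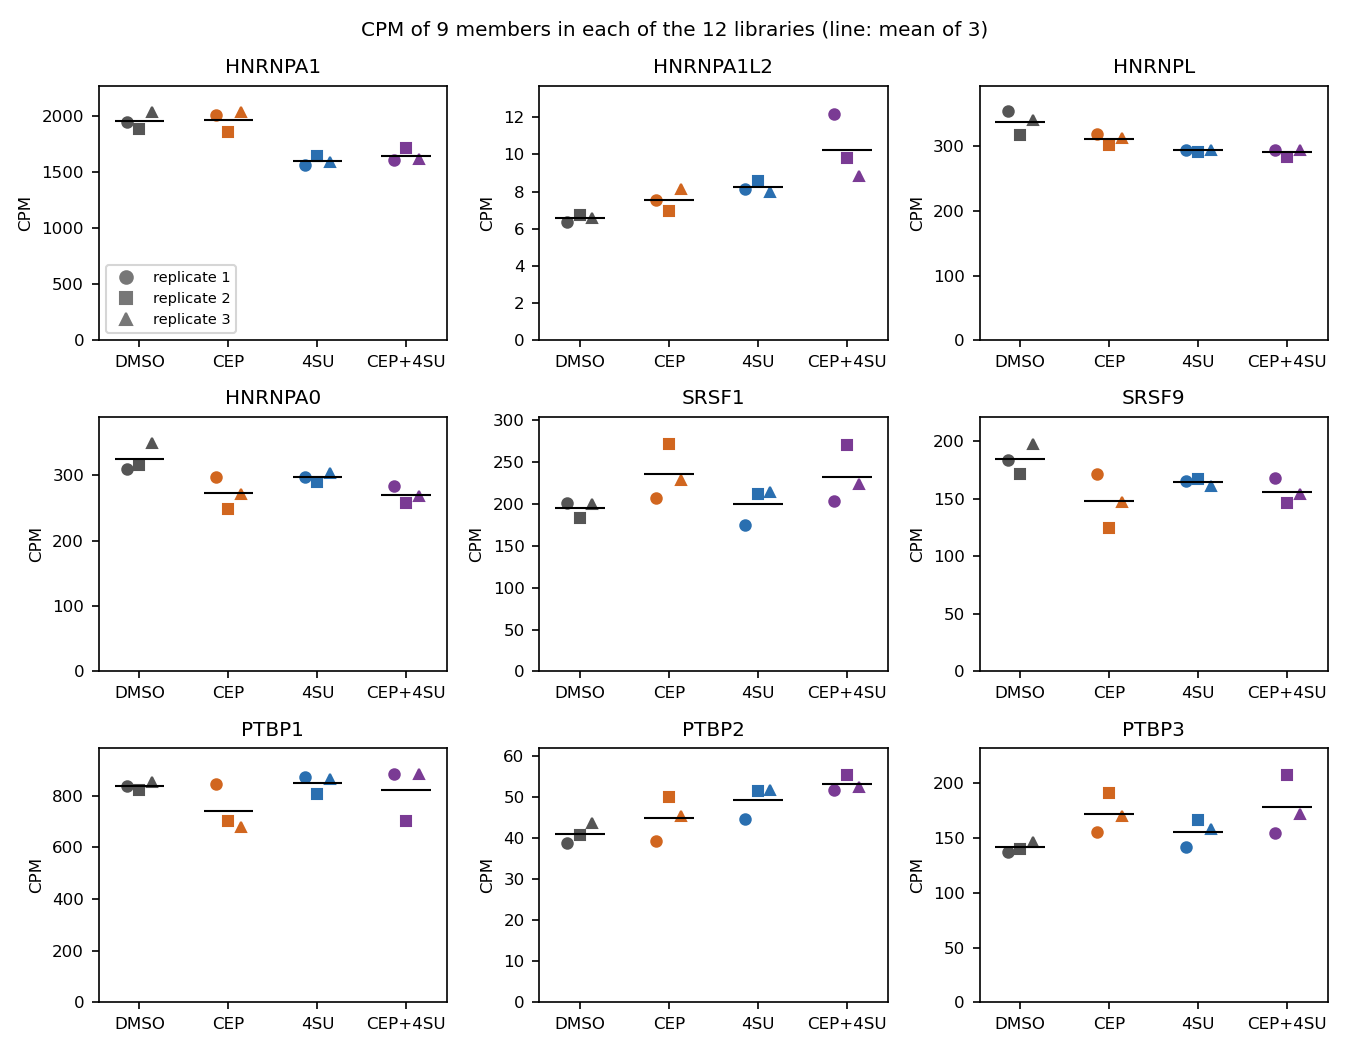
CPM of 9 members in each library by group, with a symbol for each replicate number and a line at the mean of 3. HNRNPA1 and HNRNPL are lower in all 6 libraries with 4SU, SRSF1 and PTBP3 are highest and SRSF9 and HNRNPA0 lowest in the second replicates with CEP, and HNRNPA1L2 is highest with CEP+4SU.

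Other hnRNP genes had values below 0 with 4SU that did not pass. HNRNPL, which binds CA repeats, had 354, 318 and 340.2 CPM in the DMSO libraries, 319, 302 and 313 with CEP, 295, 291 and 295 with 4SU and 294, 284 and 295 with CEP+4SU. Its 6 libraries with 4SU (284 to 295 CPM) were also below the 6 without (302 to 354 CPM), with a log2 fold change of -0.15 ± 0.046 (adjusted p = 0.15). HNRNPA1 and HNRNPL were the 2 of 37 members lower without overlap, a pattern that 0.863% of all genes showed. No member was higher without overlap, which 0.491% of all genes were.

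Of the 22 hnRNP genes, 17 had a lower and 5 a higher value with 4SU averaged over CEP, with a median log2 fold change of -0.077 beside -0.0019 over all genes tested. The unadjusted p was under 0.05 for 10 of them (45.5%), beside 12.6% of all genes. The SD of log2 CPM within groups had a median of 0.0908 over the hnRNP genes and 0.178 over all genes. Both shares therefore come from genes of unlike spread. Values below 0 with an unadjusted p under 0.05 included HNRNPF at -0.17 ± 0.048 (adjusted p = 0.11), HNRNPA2B1 at -0.18 ± 0.053 (0.14) and HNRNPC at -0.13 ± 0.045 (0.21). HNRNPDL, a paralog of HNRNPD, stood on the other side at 0.21 ± 0.054 (adjusted p = 0.092). Without both second replicates with CEP, edgeR called 6 members for 4SU, beside 1.23% of all genes, which were HNRNPA1, HNRNPA2B1, HNRNPC, HNRNPF, HNRNPH3 and PTBP2. With all 12 libraries, the pairs of groups behind the 4SU average were unlike. Between 4SU and DMSO, 18 hnRNP genes were lower and 4 higher, with a median of -0.14. Between CEP+4SU and CEP, 12 were lower and 10 higher, with a median of -0.018. An unadjusted p under 0.05 in edgeR was found for 9 and 4 of them, in that order.

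The lowest fitted change of an hnRNP gene with 4SU was that of HNRNPA1P48, a HNRNPA1 copy that the annotation lists as protein-coding. It had 26.4, 26.6 and 20.3 CPM in the DMSO libraries, 26.2, 41.4 and 22.7 with CEP, 23.4, 23.0 and 19.0 with 4SU and 23.5, 22.2 and 21.2 with CEP+4SU, and the groups overlapped. CEP replicate 2 was the highest of its 12 libraries. The change with 4SU was -0.30 ± 0.12 (adjusted p = 0.30). It was -0.14 in the fit without 1 library in which it was nearest to 0.

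HNRNPAB and HNRNPK, next after HNRNPA1 in FPKM, were not called. This order depends on the annotated length. In mean DMSO CPM, which is not divided by length, HNRNPA2B1 (1734), HNRNPU (1466) and HNRNPC (1211) were above both. HNRNPAB had 555, 545 and 582 CPM in the DMSO libraries, 562, 443 and 489 with CEP, 524, 515 and 506 with 4SU and 535, 453 and 484 with CEP+4SU. HNRNPK had 1172, 1095 and 1171 CPM in the DMSO libraries, 1187, 1057 and 1199 with CEP, 1097, 1181 and 1114 with 4SU and 1150.3, 1160.5 and 1152 with CEP+4SU. HNRNPK differed by -0.0054 ± 0.046 with 4SU and 0.016 ± 0.046 with CEP, and HNRNPAB by -0.072 ± 0.058 and -0.12 ± 0.058, with adjusted p of 0.98, 0.86, 0.67 and 0.21 in that order. HNRNPAB was lowest in the second replicates of CEP and CEP+4SU, and HNRNPK overlapped among all 4 groups. The sign of the HNRNPK value changed with the scaling for both compounds.

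The SR genes had no call with 4SU. Averaged over CEP, 4 of 12 were at a higher and 8 at a lower value, with a median log2 fold change of -0.019, and 2 had an unadjusted p under 0.05 in edgeR. DESeq2, which called 2.6% of the genes it tested and 5 members, called SRSF2 and no other SR gene (adjusted p = 0.035), and limma on log2(FPKM + 1) called none. SRSF6 had 365, 330.3 and 341 CPM in the DMSO libraries, 357, 376 and 339 with CEP, 292, 321 and 290.1 with 4SU and 295, 332 and 334 with CEP+4SU. SRSF2 had 255, 236 and 271 CPM in the DMSO libraries, 268, 271 and 271 with CEP, 221, 228 and 237 with 4SU and 227, 240.4 and 241 with CEP+4SU. For both, the highest library with 4SU was above the lowest library without it. SRSF6 had the lowest change at -0.18 ± 0.053 (adjusted p = 0.14), and SRSF2 differed by -0.17 ± 0.049 (adjusted p = 0.12).

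SRSF3 and SRSF5 had fitted changes near 0 with 4SU. SRSF3 had 650.3, 612 and 627 CPM in the DMSO libraries, 654, 646 and 671 with CEP, 591, 639 and 620.3 with 4SU and 654, 681 and 666 with CEP+4SU, a log2 change of -0.0044 ± 0.044 with 4SU and 0.087 ± 0.044 with CEP (adjusted p = 0.98 and 0.23). SRSF5, with the highest fitted change of an SR gene for 4SU, had 245, 252 and 266 CPM in the DMSO libraries, 246, 225 and 248 with CEP, 246, 268 and 249 with 4SU and 248, 278 and 232 with CEP+4SU, a log2 change of 0.039 ± 0.055 with 4SU and -0.048 ± 0.055 with CEP (adjusted p = 0.83 and 0.63). For SRSF3 the CEP+4SU libraries were above the DMSO and the 4SU libraries and the CEP libraries above the 4SU libraries, while all 4 groups of SRSF5 overlapped. The spread between replicates, as SD of log2 CPM within groups, had a median of 0.0863 over the SR genes and 0.0908 over the hnRNP genes, beside 0.178 over all genes tested. The remaining SR genes, SRSF1, SRSF4, SRSF7, SRSF8, SRSF9, SRSF10, SRSF11 and SRSF12, had changes with 4SU from -0.090 for SRSF7 to 0.030 for SRSF11.

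**Figure D3:**
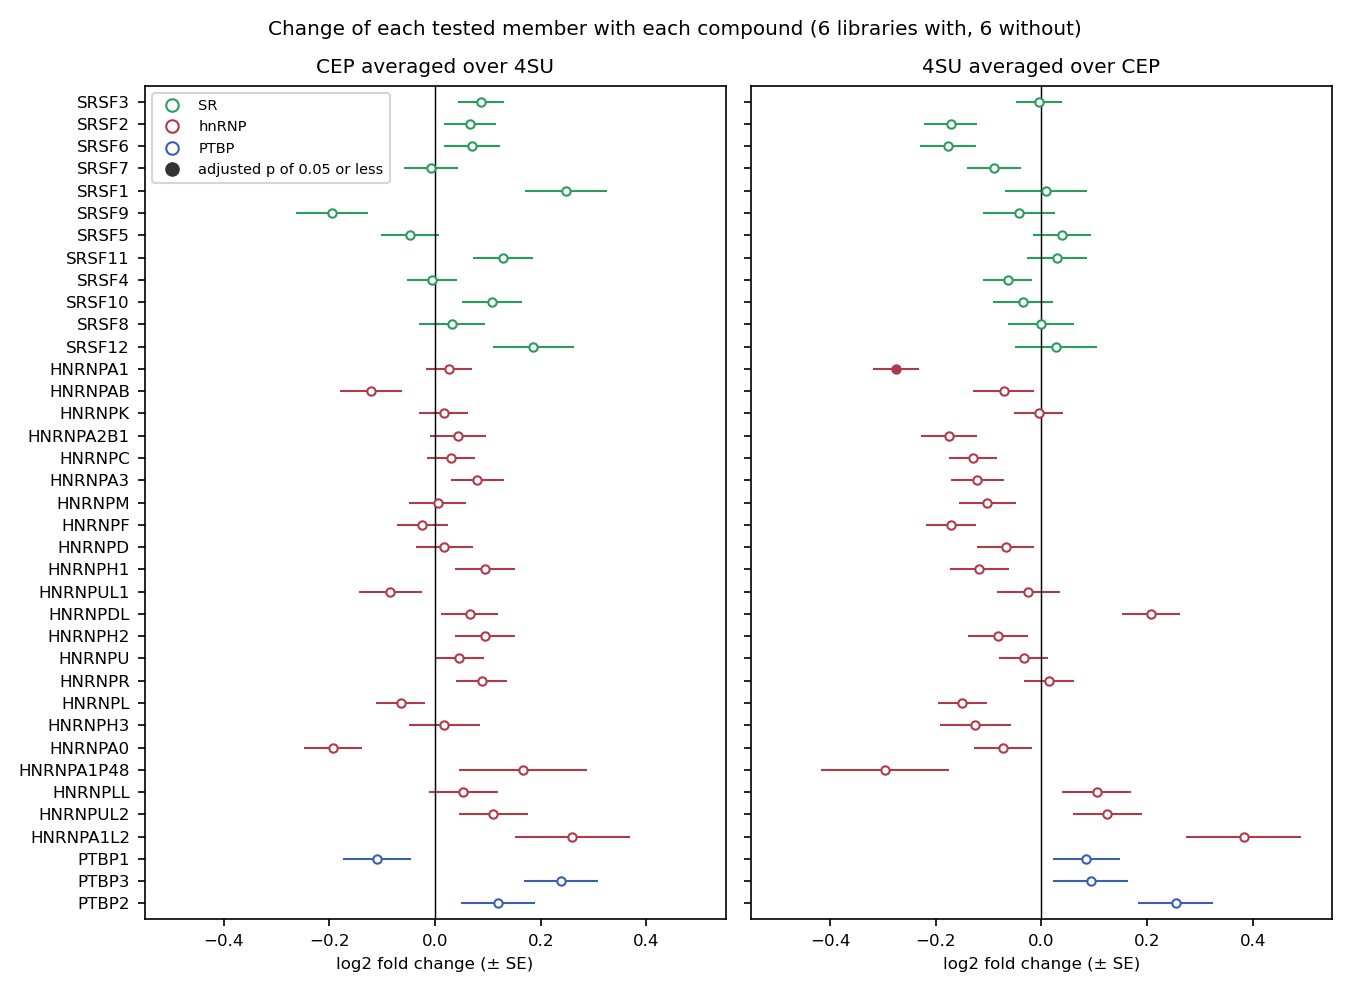
log2 fold change with its SE of each tested member for CEP averaged over 4SU and for 4SU averaged over CEP, with filled points where the adjusted p was 0.05 or less. HNRNPA1 with 4SU is the one filled point, at -0.27, and 17 of 22 hnRNP genes lie left of 0 with 4SU.

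No member was called in edgeR for CEP averaged over 4SU, where 0.276% of all genes tested were. DESeq2 called 4 members (PTBP3, SRSF1, SRSF9 and HNRNPA0), beside 15.6% of the genes it tested, and limma on log2(FPKM + 1) called 0. In edgeR 7 of 37 members (18.9%) had an unadjusted p under 0.05, beside 24.3% of all genes. The smallest adjusted p among the members was that of HNRNPA0, an intronless relative of HNRNPA1. HNRNPA0 had 309, 315 and 349 CPM in the DMSO libraries, 298, 249 and 271 with CEP, 297, 289 and 303 with 4SU and 284, 258 and 268 with CEP+4SU, a log2 fold change of -0.19 ± 0.054 (adjusted p = 0.073). Its 3 CEP libraries were below the 3 DMSO libraries and its 3 CEP+4SU libraries were below the 3 with 4SU. Without both second replicates with CEP the value was -0.15 (adjusted p = 0.19).

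SRSF1 and SRSF9, paralogs with a pair of RNA recognition motifs each, stood at opposite ends of the SR genes with CEP. SRSF1 had 201, 183 and 200.0 CPM in the DMSO libraries, 208, 272 and 229 with CEP, 175, 212 and 214 with 4SU and 203, 271 and 224 with CEP+4SU, a log2 fold change of 0.25 ± 0.077 (adjusted p = 0.086). SRSF9 had 184, 172 and 197 CPM in the DMSO libraries, 172, 125 and 148 with CEP, 166, 167 and 162 with 4SU and 168, 146 and 155 with CEP+4SU, a log2 fold change of -0.19 ± 0.068 (adjusted p = 0.10). Neither passed. SRSF1 was highest and SRSF9 lowest in the second replicates of CEP and CEP+4SU, the libraries with fewest genes counted, and the part of these libraries in the difference was measured by leaving both out. SRSF1 was then at 0.13 (adjusted p = 0.31) and SRSF9 at -0.12 (adjusted p = 0.30). The other 10 SR genes ranged from -0.048 for SRSF5 to 0.19 for SRSF12, a relative of SRSF10 with few counts.

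Among the hnRNP genes, 17 of 22 had a higher and 5 a lower value with CEP averaged over 4SU, and the median log2 fold change was 0.037 beside 0.068 for the SR genes and -0.0065 for all genes tested. HNRNPA1L2 was highest at 0.26 ± 0.11 (adjusted p = 0.16). HNRNPA1 was at 0.026 ± 0.044 (adjusted p = 0.75). Values between 0.080 and 0.11 were found for HNRNPA3, HNRNPR, HNRNPH2, HNRNPH1 and HNRNPUL2. None of the 37 members was higher or lower without overlap in the 6 libraries with CEP, as 1.21% and 0.513% of all genes tested were. The hnRNP counts differed between the pairs of groups behind the CEP average. Between CEP and DMSO, 11 hnRNP genes were higher and 11 lower, with a median of 6.7e-05. Between CEP+4SU and 4SU, 18 were higher and 4 lower, with a median of 0.080.

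PTBP1 and its paralogs differed in direction with CEP, and none passed the test. PTBP1 had 836, 822 and 853 CPM in the DMSO libraries, 847, 700.2 and 677 with CEP, 872, 808 and 865 with 4SU and 883, 701 and 884 with CEP+4SU. PTBP2 had 38.8, 40.7 and 43.7 CPM in the DMSO libraries, 39.3, 50.0 and 45.5 with CEP, 44.6, 51.6 and 51.8 with 4SU and 51.7, 55.5 and 52.4 with CEP+4SU. PTBP3 had 137, 140.3 and 147 CPM in the DMSO libraries, 155, 190.5 and 170.2 with CEP, 142, 166 and 158 with 4SU and 154, 207 and 172 with CEP+4SU. PTBP1 was lowest in replicates 2 and 3 of CEP and replicate 2 of CEP+4SU, while PTBP2 and PTBP3 were highest in the second replicates within both groups with CEP. With CEP averaged over 4SU the log2 changes were -0.11 ± 0.064 for PTBP1, 0.12 ± 0.070 for PTBP2 and 0.24 ± 0.071 for PTBP3, with adjusted p of 0.30, 0.30 and 0.080. They were, without both second replicates with CEP, -0.042 (adjusted p = 0.74), 0.060 (adjusted p = 0.72) and 0.13 (adjusted p = 0.26). Among fits without 1 library, PTBP1 was nearest to 0 without replicate 2 of CEP+4SU, at -0.059 (adjusted p = 0.60), and PTBP2 without replicate 1 of 4SU, at 0.072 (adjusted p = 0.64). PTBP3 passed without replicate 1 of CEP, at 0.28 (adjusted p = 0.021), and without replicate 1 of CEP+4SU, at 0.27 (adjusted p = 0.036).

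With 4SU averaged over CEP, PTBP1, PTBP2 and PTBP3 were at 0.085 ± 0.064, 0.25 ± 0.070 and 0.093 ± 0.071, with adjusted p of 0.64, 0.11 and 0.64. PTBP2 passed with DESeq2, with the replicate number as a block, with the GC trend removed and in the fit without both second replicates with CEP. In this last fit PTBP2 stood at 0.28 (adjusted p = 0.040). Against DMSO, CEP+4SU gave 0.37 ± 0.10 for PTBP2 (adjusted p = 0.061) and 0.33 ± 0.10 for PTBP3 (adjusted p = 0.082), and PTBP1 gave -0.025 ± 0.091 (adjusted p = 0.90).

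Ratios of antagonists and of paralogs were taken within each library from counts per kilobase. The log2 ratio of SRSF1 to HNRNPA1 was -2.67, -2.76 and -2.74 in DMSO, -2.67, -2.17 and -2.54 with CEP, -2.55, -2.35 and -2.28 with 4SU and -2.37, -2.06 and -2.25 with CEP+4SU. The DMSO libraries were the 3 lowest, with CEP replicate 1 level with the highest of them. The ratio was -2.31 ± 0.16 with and -2.59 ± 0.22 without 4SU (SD, n = 6 each, two-sided exact permutation p = 0.030, adjusted over 4 tests 0.070). For CEP it was -2.34 ± 0.23 with and -2.56 ± 0.20 without (exact permutation p = 0.035, adjusted 0.070), and neither passed after adjustment. For this and the following ratio, each difference is between plain means over libraries with and without a compound. In a fit without 1 library these are uneven in the other compound, so the difference also holds a part of that compound's difference. Without CEP replicate 2 the difference for 4SU was 0.37 and passed (exact permutation, adjusted p = 0.020), and without CEP replicate 1 both differences did (exact permutation, adjusted p = 0.047). The difference for CEP, without both second replicates with CEP, went from 0.22 to 0.10 (exact permutation, adjusted p = 0.22) and that for 4SU from 0.28 to 0.31 (adjusted p = 0.067, exact permutation). No other fit without 1 library passed, and the adjusted p reached 0.34 for CEP, without replicate 2 of CEP+4SU, where the difference was 0.16 (exact permutation). In edgeR the log2 fold change of SRSF1 alone was 0.0093 ± 0.077 with 4SU and 0.25 ± 0.077 with CEP. That of HNRNPA1 alone was -0.27 ± 0.044 with 4SU and 0.026 ± 0.044 with CEP.

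The log2 ratio of PTBP2 to PTBP1 was -5.34, -5.25 and -5.20 in DMSO, -5.34, -4.72 and -4.80 with CEP, -5.20, -4.88 and -4.97 with 4SU and -5.00, -4.57 and -4.99 with CEP+4SU. The CEP+4SU libraries were above the DMSO libraries, the other pairs of groups overlapped, and the second replicates with CEP were the 2 highest. The ratio was -4.90 ± 0.27 with and -5.14 ± 0.17 without CEP (SD, n = 6 each, two-sided exact permutation p = 0.13, adjusted 0.17). It was -4.94 ± 0.21 with and -5.11 ± 0.27 without 4SU (exact permutation p = 0.21, adjusted 0.21). The labels of 1 compound were rearranged within the levels of the other in 400 ways, which allow no p below 0.005. Without CEP replicate 1 the difference for CEP was 0.32 and passed (exact permutation, adjusted p = 0.047), and without both second replicates with CEP it was 0.11 (exact permutation, adjusted p = 0.47). The difference for 4SU was 0.17, and 0.10 without replicate 2 of CEP+4SU (exact permutation, adjusted p = 0.44).

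In single pairs of groups, edgeR called none of the 37 members between CEP and DMSO (background 0.0564% of genes tested), CEP+4SU and 4SU (0.0451%), 4SU and DMSO (0.00564%) or CEP+4SU and CEP (0.00564%). Members with an unadjusted p under 0.05 numbered 4, 0, 12 and 7 in that order, which is 10.8%, 0%, 32.4% and 18.9% of them, beside 18.6%, 7.89%, 6.50% and 8.96% of all genes. DESeq2 called 1 (HNRNPA0), 0, 1 (HNRNPA1) and 1 (HNRNPA1) of them, beside 2.63%, 0.138%, 0.425% and 0.525% of the genes it tested, and limma on log2(FPKM + 1) called 0 in each. Without CEP replicate 1, edgeR called 4 members between CEP and DMSO, which were PTBP3, SRSF9, HNRNPA0 and HNRNPUL1, beside 6.61% of all genes.

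The interaction, which asks whether the CEP difference depended on 4SU, called 0 of 37 members and 0% of all genes in edgeR, with 0 members at an unadjusted p under 0.05. DESeq2 called 0 members and limma 0. Fitted edgeR interactions of the hnRNP genes were above 0 for 20 and below 0 for 2, beside 9003 and 8726 of all genes tested. The median of the hnRNP genes was 0.10, beside 0.0039 over all genes tested. The interaction shares the libraries with 4SU alone with the comparisons of 4SU with DMSO and of CEP+4SU with 4SU. The counts of hnRNP genes by sign in these comparisons are therefore not separate observations. The interaction of HNRNPA1 was 0.036 ± 0.087 on the log2 scale (adjusted p = 1.0). The CEP difference was also measured in 2 pairs of groups that are not shared, CEP against DMSO and CEP+4SU against 4SU, and 27 of 37 members (73.0%) had the same sign in both, beside 69.7% of all genes. For 4SU it was 26 of 37 (70.3%), beside 61.0% of all genes.

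The GC content of the gene model moved with the CEP difference. Members had a median GC content of 43.1% for SR and 44.2% for hnRNP genes, beside 49.3% for all genes tested. Across the 37 members Pearson's r between GC content and the log2 change with CEP averaged over 4SU was -0.43, and across the 17718 genes tested with a known GC content it was -0.47, as a description over genes measured in the same 12 libraries. For 4SU averaged over CEP the values were -0.10 and -0.083. With the trend of all genes on GC content removed in each library, r across the 37 members for CEP turned to 0.31. Among the members the removal thus reversed the relation to GC content and did not end it. The median change with CEP then went to -0.042 for the SR and -0.055 for the hnRNP genes, below 0 for both.

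Single members differed in how far they followed this trend. PTBP1, with the highest GC content of the members at 59.5%, went to 0.042 and PTBP2, with the lowest at 37.0%, to -0.058 once the trend was removed, both with the sign reversed. PTBP3 (37.7% GC) went to 0.063. SRSF1 (46.9%) and SRSF9 (47.1%) have nearly the same GC content and stayed apart at 0.20 and -0.24 (adjusted p = 0.25 and 0.17). HNRNPA0 (41.1%) went to -0.32 and passed (adjusted p = 0.014). With the trend removed 0.361% of all genes were called for CEP and 3.78% for 4SU. For 4SU, HNRNPA1 then stood at -0.28 (adjusted p = 0.00024), and 9 members were called, HNRNPA1 with HNRNPA2B1, HNRNPC, HNRNPF, HNRNPL, SRSF2 and SRSF6 below 0 and PTBP2 and HNRNPDL above 0.

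Genes that act on or with these regulators were counted from 4 lists. Of 14 kinases, phosphatases and import factors of SR proteins, all tested, 1 was called with CEP averaged over 4SU, beside 0.276% of all genes tested, and 0 with 4SU averaged over CEP or in the other comparisons. This was CLK2, a nuclear kinase that phosphorylates SR proteins. Its level was 87.1 ± 3.36 CPM in the DMSO and 90.7 ± 3.19 in the 4SU group, against 73.3 ± 1.76 in the CEP and 75.7 ± 0.971 in the CEP+4SU group (SD, n = 3), with a log2 fold change -0.25 ± 0.052, edgeR adjusted p = 0.046. Of the 20 SR-related proteins 19 were tested, with median changes of 0.053 for CEP and -0.014 for 4SU, and edgeR called 0 in any comparison, with 5 and 0 at an unadjusted p under 0.05 in these 2 comparisons. The call of CLK2 held in 2 of 12 fits without 1 library, those without replicate 1 of CEP or of CEP+4SU, and was lost without any other (adjusted p up to 0.14). It was also lost with the GC trend removed, at -0.19 (adjusted p = 0.089). The median of the kinase list was 0.059 for CEP and 0.016 for 4SU.

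Of 36 other RNA-binding splicing regulators 33 were tested, and 2 fell in CEP+4SU against DMSO, where 1.64% of all genes tested were called. PCBP1, a binder of C-rich RNA, was at 114 ± 6.57 CPM in DMSO and 84.9 ± 12.5 in CEP+4SU (log2 fold change -0.43 ± 0.10, edgeR adjusted p = 0.043). NOVA2, known from neurons, was at 35.9 ± 4.21 CPM in DMSO and 25.8 ± 1.24 in CEP+4SU (log2 fold change -0.47 ± 0.10, edgeR adjusted p = 0.033). From a list of genes of nonsense-mediated decay and the exon junction complex, UPF2, a core decay factor, rose in the same comparison. UPF2 was at 63.2 ± 1.79 CPM in DMSO and 81.7 ± 7.82 in CEP+4SU (log2 fold change 0.37 ± 0.087, edgeR adjusted p = 0.042). Medians in this comparison were -0.0046 and 0.069 for these lists, beside 6.6e-05 for all genes tested. These 3 calls were lost without any 1 of the DMSO replicates and without replicate 2 or 3 of CEP+4SU (adjusted p up to 0.20), and without replicate 3 of 4SU. Without both second replicates with CEP, NOVA2 stayed below an adjusted p of 0.05, while PCBP1 stood at -0.31 (adjusted p = 0.064) and UPF2 at 0.29 (adjusted p = 0.079).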

How the data were processed

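RNA-Seq was done on polyA RNA of HEK293T cells in 12 libraries, 3 per group. Per the submitters' processing notes and the methods of the study, reads were cleaned of adapters and low-quality sequence, aligned with HISAT2 (2.0.5), counted per gene with featureCounts (1.5.0-p3) on GRCh38 and analysed with DESeq2. GATK (4.1.1.0) is also in the notes. The authors deposited a table of raw counts per gene and library, and a table of FPKM values, which scale those counts by gene length and library size. A table of group FPKM was deposited too and was not used. Gene lengths, coordinates and transcript sequences were those of GENCODE 29. Strand use and the treatment of reads with several matches during counting are not given in the sources used here.

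Counts were fitted with edgeR (4.0.16, R 4.3.3) in 1 quasi-likelihood model of all 12 libraries, with TMM scaling and filterByExpr (minimum count 10, minimum total 15), over 17729 genes and 8 comparisons. P-values were adjusted by Benjamini-Hochberg over all genes tested, at a threshold of 0.05. A standard error is the log2 fold change divided by the square root of the F statistic. Ratios were compared with two-sided exact permutation tests over libraries. Library totals of 16569114 to 24644734 counts set the precision. The alternatives were DESeq2 (1.42.0), limma (3.58.1) on log2(FPKM + 1), other scalings and filters, robust dispersion, the replicate number as a block, a trend on GC content or length removed in each library (lowess, span 0.3), only the libraries of a comparison, a threshold of 0.1, and fits without single libraries or without both second replicates with CEP. The scripts were tested on simulated data.

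The members and the lists of related genes were chosen with earlier results of these data known. Values in every library are given for the PTBP genes, members called in edgeR, the 3 SR and 3 hnRNP genes with the highest FPKM in DMSO, SRSF1, HNRNPA1, and the SR and hnRNP genes with the highest and lowest change in each averaged comparison. Genes called from the 4 lists are named with their group means, except for a result that is not reported here. HNRNPL, HNRNPF, HNRNPDL, HNRNPA2B1 and HNRNPC were added after their values were seen.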

Additional observations from a re-analysis of the deposited data

How the results depend on the processing

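The number of members called depended on the setting, and the cause was not tested. With DESeq2 it was 1 for CEP against DMSO, 4 for CEP averaged over 4SU, 1 for 4SU against DMSO, 1 for CEP+4SU against CEP, 5 for 4SU averaged over CEP and 8 for CEP+4SU against DMSO, against 0, 0, 0, 0, 1 and 2 in edgeR as reported. The calls over all genes in these comparisons were 2.63%, 15.6%, 0.425%, 0.525%, 2.6% and 10.6% with DESeq2, against 0.0564%, 0.276%, 0.00564%, 0.00564%, 0.558% and 1.64% in edgeR. Without a low-count filter it was 1 for CEP against DMSO, 4 for CEP averaged over 4SU, 2 for 4SU averaged over CEP and 6 for CEP+4SU against DMSO, beside 1.86%, 4.06%, 0.873% and 3.46% of all genes. With the GC trend removed it was 1 for CEP averaged over 4SU, 1 for 4SU against DMSO, 2 for CEP+4SU against CEP and 9 for 4SU averaged over CEP, beside 0.361%, 0.0846%, 1.12% and 3.78% of all genes, and the median change with CEP was -0.042 for SR and -0.0551 for hnRNP genes. Without both second replicates with CEP it was 1 for 4SU against DMSO, 1 for CEP+4SU against CEP, 6 for 4SU averaged over CEP and 1 for CEP+4SU against DMSO, beside 0.138%, 0.0498%, 1.23% and 0.863% of all genes. At an adjusted p of 0.1 or less it was 3 for CEP averaged over 4SU, 2 for 4SU averaged over CEP and 7 for CEP+4SU against DMSO. The share of all genes at this threshold is not given here, so these counts have no background to be read against. With limma it was 0 for both 4SU averaged over CEP and CEP+4SU against DMSO, beside 0.0477% and 0% of all genes. With library size alone it was 2 for 4SU averaged over CEP, beside 0.4%, and with only the libraries of the comparison 1 for 4SU against DMSO, beside 0.557%.

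Without 1 library each, members called ranged from 0 to 4 for CEP against DMSO and for CEP averaged over 4SU, where the highest counts were without replicate 1 of CEP, and from 0 to 5 for CEP+4SU against DMSO, with 4 without replicate 1 of CEP, 5 without replicate 2 of CEP and 0 without any 1 of the DMSO replicates. Calls over all genes moved too. They were 6.61% and 11.8% in the first 2 comparisons without replicate 1 of CEP. For CEP+4SU against DMSO they were 3.2% without replicate 1 of CEP, 3.52% without replicate 2 of CEP, and 0.115%, 0.0767% and 0.0766% without DMSO replicates 1, 2 and 3. The difference in the log2 ratio of SRSF1 to HNRNPA1 ranged from 0.16 to 0.282 for CEP and from 0.23 to 0.365 for 4SU, and that of PTBP2 to PTBP1 from 0.168 to 0.323 for CEP and from 0.0986 to 0.25 for 4SU. These ranges are of plain means that are uneven in the other compound once a library is left out.

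Changes of sign were counted for a part of the members, and the others were not counted. With the GC trend removed, the medians of the SR and hnRNP genes with CEP changed sign as well. Among the gene values followed, signs turned for 9, none of them called. With CEP averaged over 4SU and the GC trend removed these were PTBP1 at 0.0419, PTBP2 at -0.0579, HNRNPK at -0.0988, SRSF3 at -0.0389 and HNRNPA1 at -0.0619, and HNRNPK was at -0.0056 with upper-quartile scaling and at -0.00741 to 0.0421 without 1 library. SRSF5 with 4SU averaged over CEP was at -0.0149 without both second replicates with CEP. PTBP1 in CEP+4SU against DMSO was at 0.00738 with library size alone, 0.163 with the GC trend removed, 0.0803 without both second replicates with CEP and -0.0901 to 0.0805 without 1 library. With 4SU averaged over CEP, HNRNPK and SRSF3 were at 0.000221 and 0.00112 with DESeq2, 0.000758 and 0.00162 with RLE factors, 0.0145 and 0.0153 with upper-quartile scaling, 0.0394 and 0.0401 with library size alone, 0.00216 and 0.00306 with at least 10 counts in every library, 0.00139 and 0.00103 with limma and 0.00193 and 0.00197 with the length trend removed. Without 1 library they ranged from -0.0287 to 0.0101 and from -0.0117 to 0.0153.

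Replicate numbers were tried as a block. Of 18 same-numbered pairs of libraries in different groups, 1 had a correlation of deviations from the group means over 0.1 (range -0.0469 to 0.141). CEP replicate 1 and CEP+4SU replicate 2, with unlike numbers, had a correlation of -0.158. Correlations this weak do not settle whether the numbers mark a pairing, and what they mark is not given in the sources used here. With this replicate block 3 members were called for CEP against DMSO, 4 for CEP averaged over 4SU, 3 for 4SU averaged over CEP and 7 for CEP+4SU against DMSO, beside 4.4%, 12.8%, 1.9% and 9.4% of all genes.

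Of the values for comparisons and ratios under alternatives, 309 kept their direction and their side of the threshold, or stayed within the limits set for a count or a median, 44 moved and 4 newly passed. Of the values followed for single genes, 824 stayed the same, 72 were weaker, 58 stronger and 40 of reversed sign. HNRNPA1L2 had the fewest counts of the members tested, 118 to 226 counts per library.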
